A study of Mus musculus with 10 samples.

Results

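The miR-34 family is a group of microRNAs (miRNAs, short RNAs that guide silencing proteins to messenger RNAs) that the transcription factor p53 is known to switch on. Its members were taken by name, as every row of the deposited miRNA table for miR-34a, miR-34b or miR-34c. There were 6 such rows, a 5p and a 3p arm for each precursor, among 733 rows in all, of which 603 carried mouse miRNA names. The table came from small RNA sequencing of small extracellular vesicles, membrane particles that cells release, which were prepared from collagenase-digested mouse heart. Each of 10 libraries belonged to 1 of 2 groups of 5. The control mice were male C57BL/6J mice kept on chow. The other mice, called HFD plus L-NAME here, were male C57BL/6J mice that ate a 60% fat diet and drank water with 0.5 g/L of L-NAME, which blocks nitric oxide synthase. They started at 8 weeks of age and stayed on the regimen for 12 weeks, and per the labels the combination models heart failure with preserved ejection fraction. The labels name no genotype, and since the diet and the inhibitor were given together their parts cannot be told apart. The control mice's age is not given in the sources used here. The labels do not say that each library came from its own mouse, so every p-value below measures only the spread between these libraries.

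In mammals p53 binds at the genes of miR-34a and of the miR-34b/miR-34c cluster and raises their transcription, and miR-34 in turn lowers proteins of the cell cycle and of survival such as cyclin-dependent kinases, Bcl2 and Sirt1. In the mouse heart miR-34a is known as a miRNA that rises with age and after injury and that represses Ppp1r10 (PNUTS), a protein that protects from DNA damage. The miR-34b/miR-34c cluster and its relatives of the miR-449 locus are best known from multiciliated epithelium and from male germ cells.

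The mature sequences are shown because the family is defined by its seed, bases 2 to 8 from the 5′ end, with which a miRNA recognises its targets. They were taken from RefSeq annotation of the build GRCm38.p6. Capitals mark the seed.

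miR-34a-5p: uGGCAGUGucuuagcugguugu

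miR-34b-5p: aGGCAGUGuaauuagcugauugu

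miR-449a-5p: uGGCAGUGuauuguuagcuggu

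miR-449c-5p: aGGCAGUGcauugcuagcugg

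miR-34b-3p: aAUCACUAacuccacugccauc

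miR-34c-3p: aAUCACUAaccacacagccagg

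miR-34a-3p: aAUCAGCAaguauacugcccu

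The first 4 sequences share the seed GGCAGUG, and they were the 4 mature mouse miRNAs of the RefSeq table with that seed. miR-34a-5p and miR-449a-5p have the same first 9 bases and differ at 7 positions when aligned from the 5′ end without gaps. The 3p arms of miR-34b and miR-34c have another seed, AUCACUA, share their first 10 bases and differ at 5 positions. The 3p arm of miR-34a has a seed of its own, AUCAGCA. The remaining member is miR-34c-5p, whose seed was not compared here, so it enters none of the counts by seed.

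miR-34a and the pair miR-34b and miR-34c lie on different chromosomes. In GRCm38 the precursor Mir34a lies at chr4:150068454-150068555 on the plus strand, and its end overlaps an exon of Gm37795, a gene of the class TEC in GENCODE M21. Mir34b at chr9:51103562-51103645 and Mir34c at chr9:51103034-51103110 lie 451 bases apart on the minus strand, opposite to and within an intron of Btg4, which is on the plus strand. The hairpins below, also from RefSeq, show where the arms sit. Capitals mark the 5p arm and then the 3p arm.

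Mir34a: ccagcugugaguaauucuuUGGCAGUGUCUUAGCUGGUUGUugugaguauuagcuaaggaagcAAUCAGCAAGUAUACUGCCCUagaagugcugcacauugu

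Mir34b: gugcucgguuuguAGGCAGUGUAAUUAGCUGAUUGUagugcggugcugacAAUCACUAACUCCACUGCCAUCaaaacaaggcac

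In the 102-base Mir34a hairpin the arms cover positions 20 to 41 and 64 to 84, and in the 84-base Mir34b hairpin positions 14 to 36 and 51 to 72. Of 1005 mouse hairpins compared, 0 besides Mir34a held an exact copy of miR-34a-5p. The closest stretch in another hairpin had 6 mismatches when aligned without gaps. With gaps allowed, miR-34a-5p and miR-34b-5p differ by 4 changes, counting bases replaced, added or lost. How the authors counted reads that match several miRNAs is not given in the sources used here.

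The 10 libraries held between 238434 and 420828 miRNA counts each. Levels are CPM, counts relative to a library's miRNA total, scaled with edgeR's TMM factors. The floor of detection was taken as 3 counts, which corresponded to 7.13 to 12.6 CPM before those factors were applied. Intervals on counts cover counting error only. Across all miRNAs, the edgeR quasi-likelihood test with Benjamini-Hochberg adjustment called 0 of 177 tested miRNAs (0%) at an adjusted p under 0.05. At an unadjusted p under 0.05 it passed 28 of them (15.8%), and DESeq2 called 3 of 177 (1.69%) and limma 0 of 177 (0%). The miRNA with the most counts, the muscle miRNA miR-1a-3p, took 24.6% ± 4.10 (SD, n = 5) of control counts and 33.9% ± 6.17 (SD, n = 5) of HFD plus L-NAME counts. Some results below, among them the log2 fold change of miR-34a-5p, are also given with it removed, but most shares are not.

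miR-34a-5p (mmu-miR-34a-5p in the table), the arm of miR-34a that silences its known targets, was the abundant member and was present at 2130 counts or more in every library. Its raw counts were 6825, 4194, 5654, 4205 and 3693 in control replicates 1 to 5. They were 3136, 3055, 4244, 4198 and 2130 in HFD plus L-NAME replicates 1 to 5. At TMM scale the control levels were 15920, 10128, 20136, 11607 and 14974 CPM. The HFD plus L-NAME levels were 10695, 12387, 13967, 12743 and 8609 CPM. Control replicates 3, 1 and 5 were above every HFD plus L-NAME library and HFD plus L-NAME replicate 5 was the lowest of the 10. Control replicates 2 and 4 lay among the HFD plus L-NAME libraries, so the groups overlapped. The groups did not overlap for 7 of the 177 tested miRNAs (3.95%), and miR-34a-5p was not one of them.

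**Figure D1:**
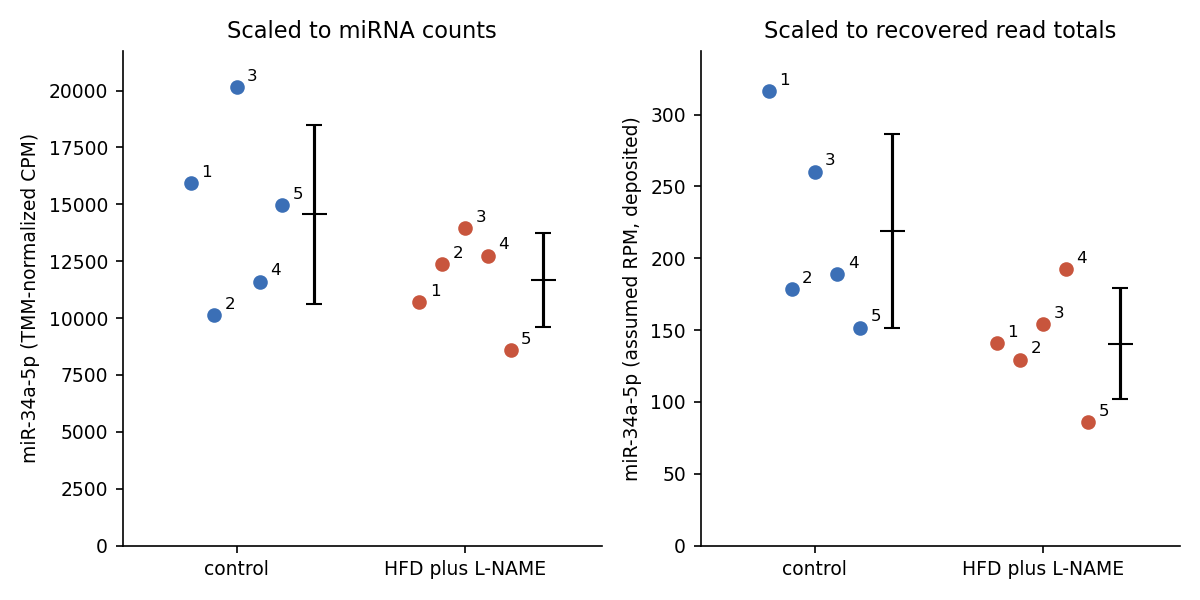
Level of miR-34a-5p in each library, as TMM-normalized CPM and as the second deposited value, assumed to be RPM, with points for libraries and group means with SD. The 5 control libraries span 10128 to 20136 CPM and the 5 HFD plus L-NAME libraries 8609 to 13967 CPM, so the groups overlap.

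The mean level of miR-34a-5p was 14553 CPM ± 3920 (SD, n = 5) in the control libraries and 11680 CPM ± 2077 (SD, n = 5) in HFD plus L-NAME. In edgeR the log2 fold change, HFD plus L-NAME over control, was −0.32 ± 0.20 (SE), with a 95% interval of −0.76 to 0.12. The quasi-likelihood test gave an adjusted p = 0.451, from an unadjusted value of 0.143. An exact two-sided permutation test of the mean levels over all arrangements of the libraries gave p = 0.198 (0.397 after Benjamini-Hochberg adjustment over 2 tests), where the smallest p it can give is 0.00794. The difference was therefore within the spread between libraries, and the interval holds both no change and a decrease of 0.76 on the log2 scale. In the fit 55 of the 177 tested miRNAs had a smaller p and 38 had a lower log2 fold change. In bulk vesicle RNA, fewer vesicles from a cell type and less of the miRNA per vesicle cannot be told apart.

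The size of the miR-34a-5p difference depended on what the counts were scaled to. The authors' second value, assumed to be RPM, gave 317, 179, 260, 189 and 152 in the control libraries and 141, 129, 154, 192 and 85.8 in HFD plus L-NAME, with means of 219 ± 67.6 (SD, n = 5) and 141 ± 38.8 (SD, n = 5). On that scale 4 of 5 HFD plus L-NAME libraries lay at or below 154, but replicate 4, at 192, lay above control replicates 2, 4 and 5. Of the read totals recovered from those values, miRNA counts made up 0.98% to 1.85% in control libraries and 1.01% to 1.55% in HFD plus L-NAME. With these totals as library sizes, edgeR gave a log2 fold change of −0.64 ± 0.28 (SE) with an unadjusted p = 0.0338 and an adjusted p = 0.190. In that fit 38 of 183 miRNAs (20.8%) were lower at an unadjusted p under 0.05 and the median over all tested miRNAs was −0.37, so relative to the median miR-34a-5p stood at −0.27. With miR-1a-3p removed before scaling, the log2 fold change was −0.19 ± 0.21 (SE, adjusted p = 0.726 by the edgeR quasi-likelihood test), and relative to that fit's median of 0.12 it was −0.31. Without control replicate 3, the library with the highest level, it was −0.06 (adjusted p = 0.929 by the same test), and relative to that fit's median of 0.12 it was −0.17.

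**Figure D2:**
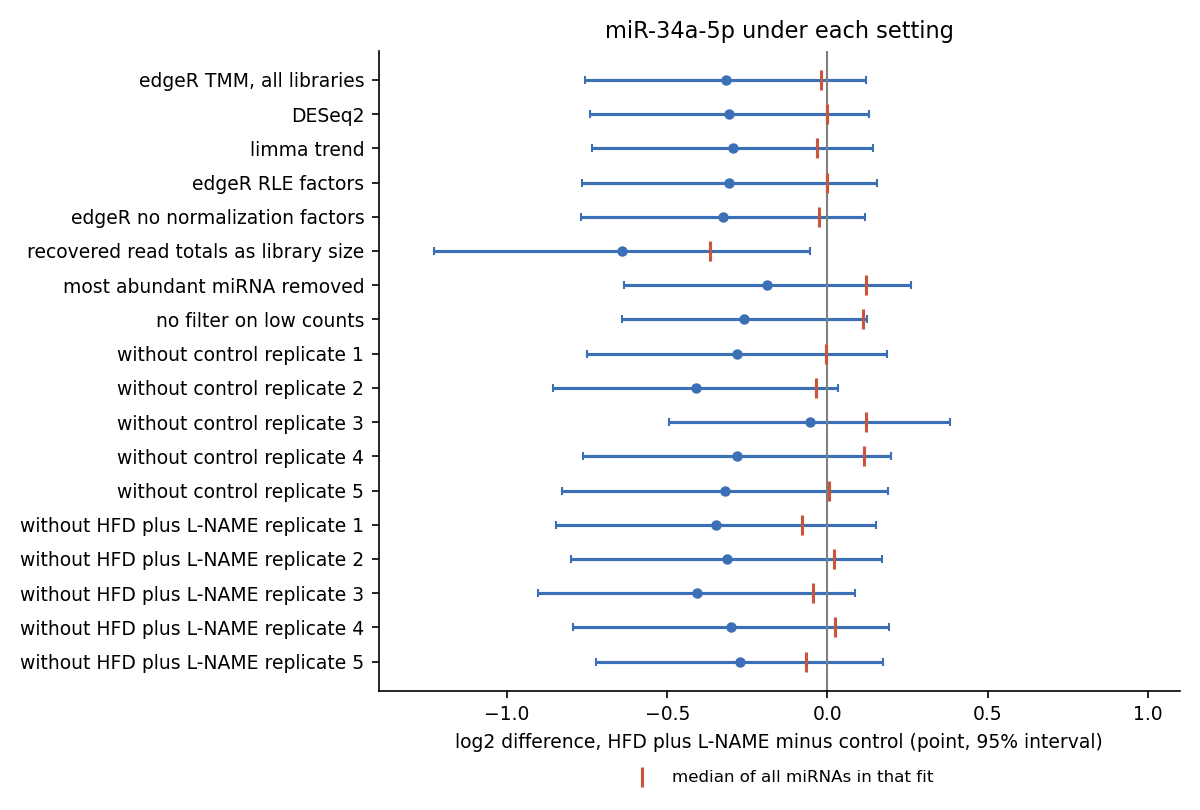
Log2 difference of miR-34a-5p between HFD plus L-NAME and control (x axis) with its 95% interval under each setting (y axis), with a red tick at the median of all miRNAs tested in that fit. Every point lies below 0, from −0.64 with recovered read totals to −0.06 without control replicate 3, and the interval stays below 0 with read totals alone.

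The spread of miR-34a-5p was wider among control libraries, a difference that was not tested. The coefficient of variation of its CPM was 26.9% in the control libraries and 17.8% in HFD plus L-NAME. Among the 34 miRNAs with at least 10000 counts over the 10 libraries, the medians of the same measure were 19.2% and 21.5%. Of those 34, 27 varied less than miR-34a-5p in the control libraries and 14 varied less in HFD plus L-NAME.

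Ranked by count among all 733 rows, miR-34a-5p held places 15, 22, 15, 19 and 18 in the control libraries and places 19, 18, 16, 19 and 22 in HFD plus L-NAME. The mean rank was 17.8 ± 2.95 (SD, n = 5) and 18.8 ± 2.17 (SD, n = 5), and an exact two-sided permutation test gave p = 0.587 (0.587 after Benjamini-Hochberg adjustment over 2 tests). The rank, which no scaling factor changes, thus overlapped between the groups as the level did. miR-34a-5p made up 1.46% ± 0.355 (SD, n = 5) of control miRNA counts and 1.16% ± 0.234 (SD, n = 5) of HFD plus L-NAME counts.

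By mean level over all 10 libraries miR-34a-5p took place 18. Just above it were let-7a-5p at 14344 CPM and miR-23a-3p at 13919 CPM, and just below it let-7d-5p at 12311 CPM and miR-23b-3p at 11155 CPM. These gaps are smaller than the control SD of miR-34a-5p of 3920 CPM, and whether neighbours in this order differed within libraries was not tested. The neighbour miR-23a-3p did not overlap between the groups, with 16005 CPM ± 1316 (SD, n = 5) in the control libraries and 11833 CPM ± 931 (SD, n = 5) in HFD plus L-NAME. Its log2 fold change was −0.44 ± 0.14 (SE), with an adjusted p = 0.172 in edgeR and an adjusted p = 0.0466 in DESeq2, so its call depended on the tool.

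**Figure D3:**
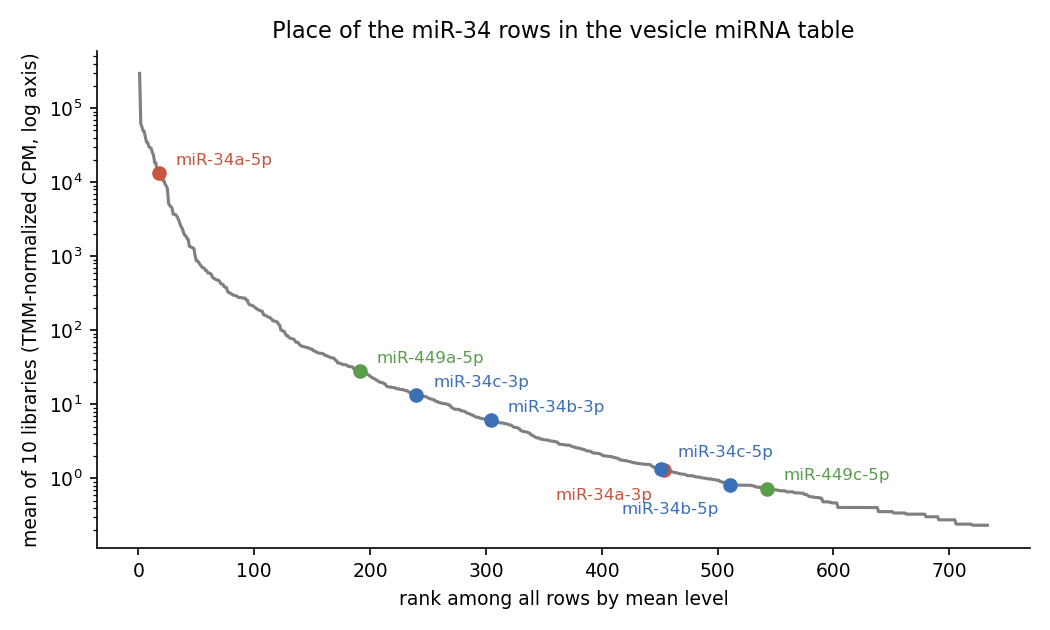
Mean level of each row over 10 libraries (TMM-normalized CPM, log axis) against its rank among all rows, with the miR-34 rows marked. miR-34a-5p stands at rank 18 with a mean of 13117 CPM, and the other 5 rows lie in the long tail of rare miRNAs.

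The other 5 rows were near or under the floor, and none passed the expression filter, so edgeR tested only miR-34a-5p of the 6. The locus of miR-34b and miR-34c gave 66 counts in all 10 libraries together, with an exact 95% Poisson interval of 51.0 to 84.0. Per library the sum of its 4 rows was 4, 6, 6, 12 and 10 in the control libraries and 4, 2, 4, 11 and 7 in HFD plus L-NAME. Only HFD plus L-NAME replicate 2 was under the floor of 3 counts, and the groups overlapped over nearly their whole range. The summed level was 23.8 CPM ± 12.9 (SD, n = 5) in the control libraries and 19.3 CPM ± 10.9 (SD, n = 5) in HFD plus L-NAME. The relative difference of −18.7% is smaller than either group's spread, and a difference was not detectable at this depth.

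Within the locus the 3p arms carried most counts. miR-34c-3p had 3, 3, 4, 6 and 3 counts in the control libraries and 2, 1, 3, 9 and 7 in HFD plus L-NAME, 41 in all, and was the only one of these rows seen in every library. miR-34b-3p had 0, 3, 2, 6 and 4 counts in the control libraries and 0, 1, 1, 2 and 0 in HFD plus L-NAME, 19 in all. The first was higher in HFD plus L-NAME replicates 4 and 5 than in any control library, and the second reached its highest counts in control libraries, but both overlapped between the groups. With the expression filter removed, edgeR's quasi-likelihood test gave miR-34b-3p a log2 fold change of −1.51 ± 0.95 (SE, adjusted p = 0.520) and miR-34c-3p one of 0.51 ± 0.62 (SE, adjusted p = 0.671).

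The rows left were read a few times in single libraries. miR-34c-5p had 1 count in each of control replicates 1 and 5 and 2 counts in HFD plus L-NAME replicate 1. miR-34b-5p had 2 counts in control replicate 5 and none elsewhere. miR-34a-3p had 1 count in each of control replicates 2 and 3 and 2 counts in HFD plus L-NAME replicate 1. All of these are under the floor of 3 counts per library, so no level is read from them.

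**Figure D4:**
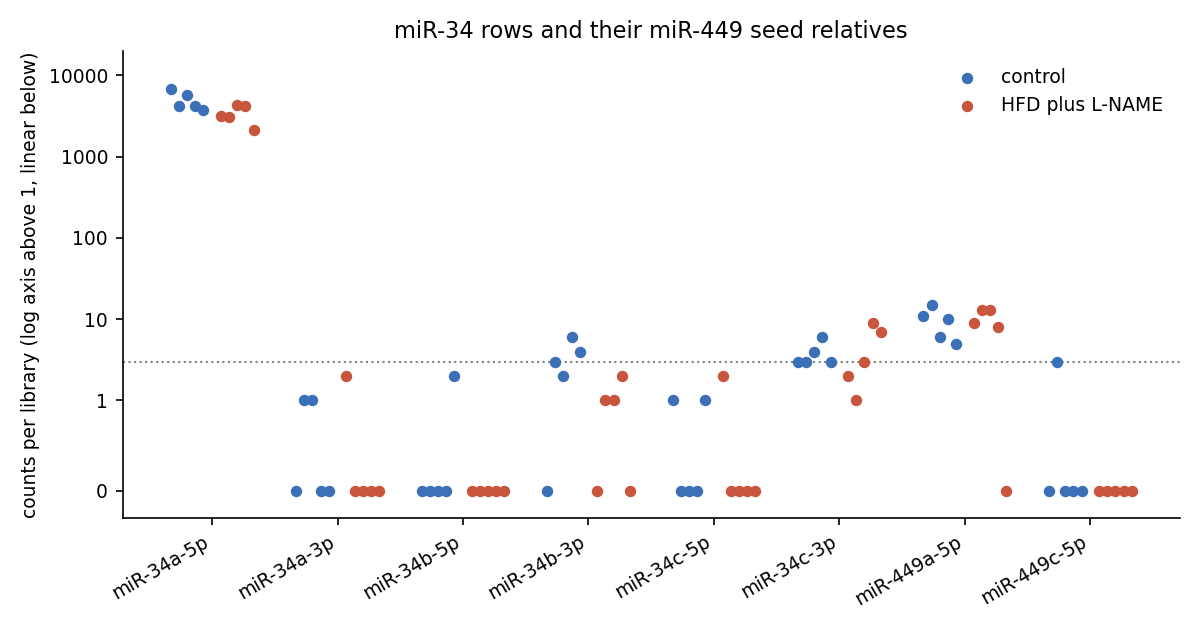
Raw counts of each miR-34 row and of 2 miR-449 rows in each library (log axis above 1, linear below), with the floor of 3 counts as a dotted line. miR-34a-5p lies between 2130 and 6825 counts in all 10 libraries, and the other 5 miR-34 rows lie at 9 counts or fewer.

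Compared within each library, miR-34a exceeded the miR-34b/miR-34c locus in 10 of 10 libraries. Over all libraries 41338 counts of miR-34a stood against 66 of the locus, a ratio of 626 with an exact 95% interval of 492 to 810. Per library the ratio was 1706, 699, 942.5, 350 and 369 in the control libraries and 784.5, 1527.5, 1061, 382 and 304 in HFD plus L-NAME. In the second HFD plus L-NAME library the locus had 2 counts, and with the locus set to the floor of 3 counts its ratio was 1018. Low and high ratios occurred in both groups. miR-34a made up 99.8% of the 41404 miR-34 counts, with an exact 95% binomial interval of 99.8% to 99.9%, and 99.7% to 99.9% in single libraries.

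The 2 loci also differed in which arm was found. For miR-34a the 3p arm held 4 of 41338 counts, or 0.00968%, with an exact 95% binomial interval of 0.00264% to 0.0248%. For miR-34b the 3p arm held 19 of 21 counts, or 90.5%, with an interval of 69.6% to 98.8%. For miR-34c it held 41 of 45 counts, or 91.1%, with an interval of 78.8% to 97.5%. In these vesicle libraries the arm with the family seed GGCAGUG was thus the major one for miR-34a and the minor one for miR-34b, and of the 66 locus counts 60 were 3p reads, whose seed is AUCACUA.

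Most precursors listed with both arms had a clear major arm, and that of miR-34a was among the more dominant. Among 133 precursor names with both arms listed and at least 20 counts, 78 were mostly 5p and 55 mostly 3p, and the median share of the minor arm was 3.08%. Of these, 5 had a smaller minor arm than miR-34a, and all 5 were among the 21 with at least 10000 counts, where a small share can be measured. A precursor whose arms are not both listed under the same name, such as miR-26a or miR-1a, was not compared. Precursors with a single arm listed were thus left out, and the 5 counts only precursors with both arms listed.

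**Figure D5:**
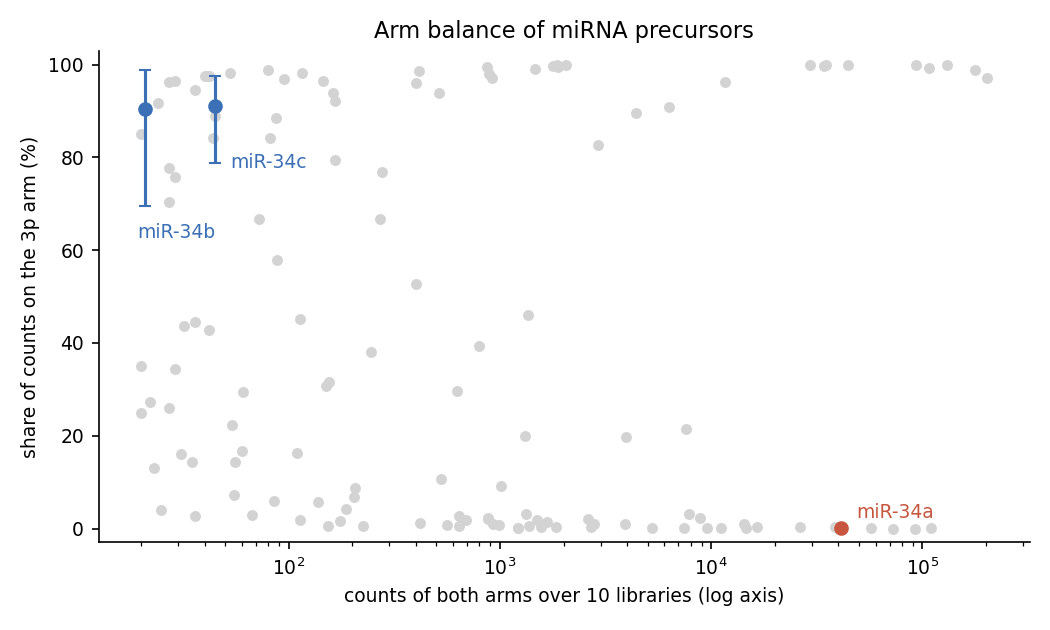
Share of counts on the 3p arm (y axis, %) against the counts of both arms over 10 libraries (log axis) for each precursor name with both arms and at least 20 counts, with exact 95% binomial intervals for the 3 miR-34 precursors. miR-34a lies near 0% with 41338 counts, and miR-34b and miR-34c lie at 90.5% and 91.1% with 21 and 45 counts.

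Seed relatives added little to miR-34a-5p. miR-449a-5p, from an intron of Cdc20b at chr13:113037534-113037624, had 11, 15, 6, 10 and 5 counts in the control libraries and 9, 13, 13, 8 and 0 in HFD plus L-NAME. It was present in 9 of 10 libraries and its groups overlapped, and the 0 in HFD plus L-NAME replicate 5 lies against 5 to 15 counts in control. miR-449c-5p had 3 counts in control replicate 2 and none elsewhere. Of the 41429 counts of the 4 miRNAs printed above with the seed GGCAGUG, miR-34a-5p held 99.8%, with an exact 95% binomial interval of 99.7% to 99.8%. miR-449a-5p, with 90 counts, was the second of these 4 by counts, and had more counts than the whole miR-34b/miR-34c locus.

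The tested miRNAs whose log2 CPM followed miR-34a-5p most closely over the 10 libraries were miR-221-3p (Pearson r = 0.813, Spearman rho = 0.842), miR-26b-5p (r = 0.801, rho = 0.830), miR-126a-3p (r = 0.784, rho = 0.661), miR-3074-2-3p (r = 0.748, rho = 0.709) and miR-143-3p (r = 0.744, rho = 0.721). miR-126a-3p is known from endothelium and miR-143-3p from smooth muscle, and miR-221-3p was also listed as endothelial. The other endothelial and smooth muscle miRNAs listed here followed it less or not at all. Their r was 0.407 for miR-222-3p, 0.147 for miR-126a-5p, 0.138 for miR-145a-3p and −0.445 for miR-145a-5p. For the closest 5, r with each group's mean removed was between 0.673 for miR-3074-2-3p and 0.884 for miR-221-3p. Without the 2 libraries farthest from the median of miR-34a-5p, r was between 0.414 for miR-126a-3p and 0.702 for miR-3074-2-3p, so the likeness to miR-126a-3p rested in large part on those libraries. These are descriptions of the closest 5 of 159 named miRNAs compared, and the points share library and depth. Correlations in the opposite direction reached a similar size, with r = −0.769 for miR-193b-3p and −0.747 for miR-15b-5p.

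None of the other miRNAs that p53 is known to switch on, or whose processing it promotes, passed the adjusted threshold. Of 18 such miRNAs, miR-34 rows included, 17 had a row, 9 were tested and 0 were called. Of the 9 log2 fold changes 3 were above and 6 below 0, with a median of −0.23 beside −0.02 over all 177 tested miRNAs. By the edgeR quasi-likelihood test, miR-143-3p was lower (−0.54 ± 0.17 SE, adjusted p = 0.172) and miR-16-5p higher (0.43 ± 0.18 SE, adjusted p = 0.232) at an unadjusted p under 0.05 alone. miR-143-3p did not overlap between the groups, at 26251 to 37662 CPM in HFD plus L-NAME libraries and 40022 to 63879 CPM in control libraries. The remaining log2 fold changes were −0.23 ± 0.18 (SE) for miR-22-3p, −0.23 ± 0.32 for miR-194-5p, −0.23 ± 0.26 for miR-145a-3p, −0.12 ± 0.19 for miR-192-5p, 0.18 ± 0.23 for miR-145a-5p and 0.01 ± 0.19 for miR-15a-5p.

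One untested miRNA of that list stood apart and was picked out after its values were seen. miR-200c-3p, an epithelial miRNA, had 0, 3, 0, 1 and 0 counts in the control libraries and 10, 7, 8, 7 and 2 in HFD plus L-NAME. The raw counts overlapped between 2 and 3, while in CPM the highest control library stood at 7.24 and the lowest HFD plus L-NAME library at 8.08. That gap rests on 3 and 2 counts, at and under the floor. It did not pass the expression filter, and with the filter removed edgeR's quasi-likelihood test over 733 rows gave an adjusted p = 0.011. Its cluster partner miR-141-3p had 4, 0, 0, 0 and 1 counts in the control libraries and 2, 0, 5, 5 and 3 in HFD plus L-NAME, which overlapped.

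For miRNAs of the miR-17-92 cluster, which p53 is known to repress, 5 of 6 had a row and 2 were tested, with 0 called. miR-92a-3p stood at 125 CPM ± 32.0 (SD, n = 5) in HFD plus L-NAME beside 243 CPM ± 88.3 (SD, n = 5) in control, with a log2 fold change of −0.96 ± 0.31 (SE, adjusted p = 0.172 by the edgeR quasi-likelihood test). miR-19b-3p had a log2 fold change of 0.05 ± 0.39 (SE). Of 10 miRNAs reported to target the deacetylase Sirt1, a known target of miR-34a, 9 had a row, 6 were tested and 0 were called, with 1 log2 fold change above and 5 below 0 and a median of −0.28. Among them miR-195a-5p stood at 0.89 ± 0.35 (SE), miR-181a-5p at −0.59 ± 0.22, miR-204-5p at −0.87 ± 0.44 and miR-199a-5p at −0.13 ± 0.41, none past the adjusted threshold. Of 11 miRNAs linked to cardiac ageing, among which miR-34a-5p is counted, 8 were tested and 0 called, with 6 above and 2 below 0 and a median of 0.10.

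The labelled tissue was checked against its miRNAs. The 8 muscle miRNAs together held 29.2% ± 3.85 (SD, n = 5) of control and 37.2% ± 5.80 (SD, n = 5) of HFD plus L-NAME counts, and heart-specific miR-208a-3p stood at 654 CPM or more in all 10 libraries. Without miR-1a-3p the muscle miRNAs held 4.61% ± 0.513 of control and 3.35% ± 0.778 of HFD plus L-NAME counts, an order opposite to that of the full list, in an alternative chosen after seeing the data. Within the list the edgeR log2 fold change was 0.48 ± 0.20 (SE) for miR-1a-3p and 0.63 ± 0.24 for miR-208a-3p, but −0.60 ± 0.15 for miR-499-5p, whose groups did not overlap, and −0.19 ± 0.23 for miR-133a-3p. None of these 4 passed the adjusted threshold in edgeR, and DESeq2 called miR-499-5p with an adjusted p = 0.0049. Among markers of other cells, red blood cell miRNAs held 3.44% ± 1.82 and 1.77% ± 0.706 of counts, endothelial ones 7.17% ± 0.657 and 5.75% ± 1.19, smooth muscle ones 5.10% ± 1.12 and 3.56% ± 0.534, and fibroblast ones 0.429% ± 0.210 and 0.736% ± 0.389, in control libraries and in HFD plus L-NAME libraries (SD, n = 5 each). The fibroblast share rests mainly on miR-199a-3p, whose mature sequence is identical to that of miR-199b-3p, a row outside the list. In control replicates 1 and 4 and HFD plus L-NAME replicate 5 nearly all counts of this pair stood on miR-199b-3p, and in the other 7 libraries on miR-199a-3p. With miR-199b-3p added, also chosen after seeing the data, the fibroblast share was 0.624% ± 0.104 and 0.897% ± 0.333, and with neither of the pair 0.190% ± 0.0339 and 0.235% ± 0.0686, and the groups overlapped in both. Leukocyte miRNAs held 0.473% ± 0.0320 and 0.465% ± 0.127, liver ones 0.0629% ± 0.0155 and 0.0493% ± 0.00563, neuronal ones 0.0396% ± 0.0140 and 0.0370% ± 0.0100, and epithelial ones 0.00928% ± 0.00428 and 0.0142% ± 0.00633 in the same order. Markers of multiciliated epithelium, which include both 5p arms of the miR-34b/miR-34c locus, held 0.00309% ± 0.000841 and 0.00312% ± 0.00197 of counts. The part of these shares in the miR-34a-5p values was not tested.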

How the data were processed

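Small RNA was sequenced from heart vesicles in 10 libraries, 5 per group, with replicates numbered in accession order. The authors deposited a raw read count per mature miRNA, and beside it a second value with no stated unit. This value was taken as RPM scaled by the authors, since dividing the count by it gave 1 constant in each library, which yielded read totals of 21563706 to 27493796. Per the submitters' processing notes, the genome build was GRCm38.p6. The aligner and the counting tool were not given in the sources used here.

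Counts were tested with edgeR 4.0.16 (TMM, filterByExpr, robust quasi-likelihood test, Benjamini-Hochberg, threshold 0.05) in R 4.3.3, which kept 177 of 733 rows. Standard errors came from dividing log2 fold changes by √F. Likeness used log2 CPM with a prior count of 2. The test was also run on counts simulated from the spread in this fit. The changes set there were larger than the log2 fold change reported for miR-34a-5p, so detection of a change that small was not checked. DESeq2 1.42.0, limma 3.58.1, other scalings, no filter and leaving out each library were alternatives. Exact tests used SciPy 1.17.1 in Python 3.11.15, tables used NumPy 2.4.6 with pandas 2.3.3, and plots matplotlib 3.10.9. Libraries within a group differed by chi-square per degree of freedom of 24.9 to 169 over 20 pairs, so no library was counted as a copy.

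The members, the 16 lists (107 entries) and the tests were chosen with earlier results of these data known. The naming rule took all miR-34 and miR-449 rows, the neighbours of miR-34a-5p in level, the 5 miRNAs most like it, and the tested members of the p53 and Sirt1 lists. Of the cell type lists, for which it allowed up to 3 miRNAs each, mainly summed shares are given.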

Additional observations from a re-analysis of the deposited data

Results flagged for a closer look

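Single libraries stood far from the rest of their group in 5 cases, each resting on 3 counts or fewer against libraries that were all at 0. In HFD plus L-NAME replicate 1, miR-34a-3p stood at 6.82 CPM and miR-34c-5p also at 6.82 CPM, from 2 counts each, and the 3p share of miR-34a was 0.0637% there against 0% in the other libraries of the group. miR-34b-5p stood at 8.11 CPM in control replicate 5, from 2 counts. miR-449c-5p stood at 7.24 CPM in control replicate 2, from 3 counts. The rule behind these marks picks about 1 in 20 groups of normally distributed values by chance. That rate does not hold here, since 1 library with any count against 4 at 0 is always marked.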

How the results depend on the processing

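The log2 fold change of miR-34a-5p stayed below 0 and short of the adjusted threshold under all 17 alternatives, at −0.64 to −0.19 under other tools, scalings or filters and −0.41 to −0.06 with 1 library left out, with adjusted p from 0.190 to 0.929 (edgeR, DESeq2 or limma). The exact permutation p of its level ran from 0.0635 to 0.460. Its mean rank difference ran from 0.2 to 2.05 places with 1 library left out. The locus difference ran from −33.5% to −1.32% with 1 library left out, and was −28.3% in RPM and 30.8% for miR-34c alone, within its spread. Calls over all miRNAs were 0 in the reported fit, 3 with DESeq2 (miR-23a-3p, miR-125b-5p and miR-499-5p), 1 with no filter (miR-200c-3p) and 0 to 1 with 1 library left out, namely 1 without control replicate 1 and 1 without control replicate 2. None of these was a miR-34 row, and the cause was not tested.

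Log2 fold changes near 0 of miRNAs outside the family changed sign, and the cause was not tested. let-7a-5p went from −0.02 to 0.0024 with DESeq2, 0.0025 with RLE factors, 0.12 with miR-1a-3p removed, 0.039 with no filter and −0.21 to 0.21 with 1 library left out. With miR-1a-3p removed, let-7d-5p became 0.020, miR-23b-3p 0.059, miR-221-3p 0.073, miR-26b-5p 0.016, miR-192-5p 0.014 and miR-199a-5p 0.037. With no filter miR-221-3p became 0.0030. With recovered read totals, miR-145a-5p became −0.14, miR-15a-5p −0.36 and miR-19b-3p −0.32. miR-15a-5p was −0.016 without factors and miR-19b-3p −0.050 with limma. With 1 library left out, ranges were −0.20 to 0.060 for let-7d-5p, −0.17 to 0.026 for miR-23b-3p, −0.20 to 0.19 for miR-221-3p, −0.18 to 0.12 for miR-26b-5p, −0.22 to 0.0035 for miR-192-5p, −0.064 to 0.11 for miR-15a-5p, −0.12 to 0.34 for miR-19b-3p and −0.32 to 0.19 for miR-199a-5p.

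No paired analysis was possible because the library numbers in the labels differ between the groups. At the depth of these libraries, the rows other than miR-34a-5p allow no statement on a difference.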
